A study of Mus musculus with 18 samples.

Results

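The period genes Per1, Per2 and Per3 encode repressors of the circadian clock. They were taken as the probe sets annotated to exactly 1 of these symbols, which gave 1 probe set per gene (Per1 10377439, Per2 10356601, Per3 10518781), 3 genes of the 19938 tested. Their RNA was measured on 18 expression arrays of wild type fibroblasts of the mouse embryo. The labels call these lines Bmal1 WT, from siblings of Bmal1-/- animals on a C57BL/6 background, and say that fibroblast lines came from 2 mice, with embryos taken at embryonic day 13 and head and liver discarded. All cultures, with no untreated one among them, were exposed for 2 h to 100 nM dexamethasone, a synthetic glucocorticoid used to bring the clocks of cultured cells into step. The 6 groups were 22, 26, 30, 34, 40 and 46 h after it. Each had 3 arrays named as biological replicates, and since nothing says that they came from separate cultures, p-values here cover only the spread among arrays, which may be technical. The times cover a single cycle of 24 h, so that a rhythm cannot be seen to repeat.

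In mammals the activators CLOCK and BMAL1 bind E-box elements and switch on the Per and Cry genes, and PER and CRY proteins together enter the nucleus and repress those activators. PER proteins are marked for destruction by casein kinase 1 and an F-box ubiquitin ligase, which helps to set the length of the cycle. Per1 and Per2 also respond directly to glucocorticoids and to cAMP signals, while Per3 is not needed for the core oscillation and is driven strongly through D-box elements, which the activators DBP, TEF and HLF and the repressor NFIL3 bind.

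RefSeq promoter windows (assembly GRCm38.p6, 250 bases before to 50 bases after a start site) were matched by symbol for Per1, with 2 start sites, and for Per3. They are shown because E-box, D-box and cAMP elements are known routes of clock and signal control of these genes. Capitals mark the letters of a searched motif on either strand.
Per1 first start site, chr11:69098699-69098998, plus strand: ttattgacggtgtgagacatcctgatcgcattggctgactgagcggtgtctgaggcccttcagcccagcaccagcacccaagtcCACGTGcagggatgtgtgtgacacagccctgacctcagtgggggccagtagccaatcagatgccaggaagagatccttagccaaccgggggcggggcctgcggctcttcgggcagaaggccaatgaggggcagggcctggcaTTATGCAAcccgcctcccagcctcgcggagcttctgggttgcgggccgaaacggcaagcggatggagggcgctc
Per1 second start site, chr11:69099902-69100201, plus strand: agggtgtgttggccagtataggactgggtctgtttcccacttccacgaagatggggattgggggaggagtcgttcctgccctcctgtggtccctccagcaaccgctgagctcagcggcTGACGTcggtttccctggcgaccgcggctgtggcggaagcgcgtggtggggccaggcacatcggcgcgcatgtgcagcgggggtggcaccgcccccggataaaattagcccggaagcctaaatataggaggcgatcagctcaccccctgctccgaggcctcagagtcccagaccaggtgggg
Per3, chr4:151044616-151044915, minus strand: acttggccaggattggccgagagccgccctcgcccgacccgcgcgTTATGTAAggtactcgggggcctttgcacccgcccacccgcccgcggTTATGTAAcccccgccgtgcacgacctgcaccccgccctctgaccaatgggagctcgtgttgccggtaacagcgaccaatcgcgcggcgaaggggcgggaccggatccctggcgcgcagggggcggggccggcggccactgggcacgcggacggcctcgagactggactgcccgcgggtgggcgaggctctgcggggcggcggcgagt
The Per3 window held the D-box core TTATGNAA at 2 places, both reading TTATGTAA, with their first bases 205 and 158 bases before the start site. Of 32851 windows of 300 bases, 3.38% held this core and 0.161% held it at 2 or more places. The first Per1 window held the E-box CACGTG, present in 7.15% of windows, and 1 D-box core reading TTATGCAA, whose first base lay 24 bases before the start site. The second Per1 window held TGACGT, the core of the cAMP response element, as did 7.51% of windows. The full element TGACGTCA, which contains that core (1.79% of windows), the E-box-like CACGTT (4.68%) and the full palindromic glucocorticoid response element (0.00913%) were not among the letters of these windows. Of 19 other clock genes in the E-box, nuclear receptor and D-box lists, 17 had a window; CACGTG lay in windows of 4 of the 17 (Cry1, Ciart, Bhlhe41 and Tef) and the D-box core in that of 1 (Timeless).

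Marker levels are given as a description, since levels of different probe sets cannot be compared. The 10 fibroblast markers averaged 11.5 to 11.8 on the log2(intensity + 16) scale in their time means, with the collagen gene Col1a2 at 13.04 to 13.36 and Thy1, the lowest of them, at 7.23 to 7.40. The 4 epithelial markers averaged 7.22 to 7.34, the 3 endothelial 6.49 to 6.64, the 4 macrophage and blood 7.01 to 7.14, the 3 skeletal muscle 7.33 to 7.45 and the 3 neural 8.29 to 8.43. The 4 measured markers of dividing cells fell over the course, with time means of 11.28, 10.71, 10.60, 10.58, 10.20 and 10.05 from 22 h to 46 h. At 46 h relative to 22 h, 6 of the 10 fibroblast markers rose and 1 fell (all genes 11.5% higher and 9.73% lower). The part of either in the results was not tested. Array medians lay between 196 and 210 intensity units, and precision is limited by how many arrays there were. In cultures measured in bulk, fewer cells of a type and less RNA per cell cannot be told apart.

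Per2 and Per3 were high from 22 to 30 h, were lower at 40 h than at those times, and had intermediate levels at 46 h. Per1 had its highest level at 46 h, above 22, 26 and 30 h by the test but not above 34 and 40 h. Its 5 earlier levels were close together. All 3 genes passed limma's F test over the 6 times, adjusted by Benjamini-Hochberg over all genes, and so did 19.8% of all genes. Times accounted for 91.7% of the variance of Per3 between arrays, 91.4% of that of Per2 and 60.9% of that of Per1. These shares are not adjusted for the 6 fitted means, which take up some variance even in a gene without change. No share over all genes stands beside them.

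**Figure D1:**
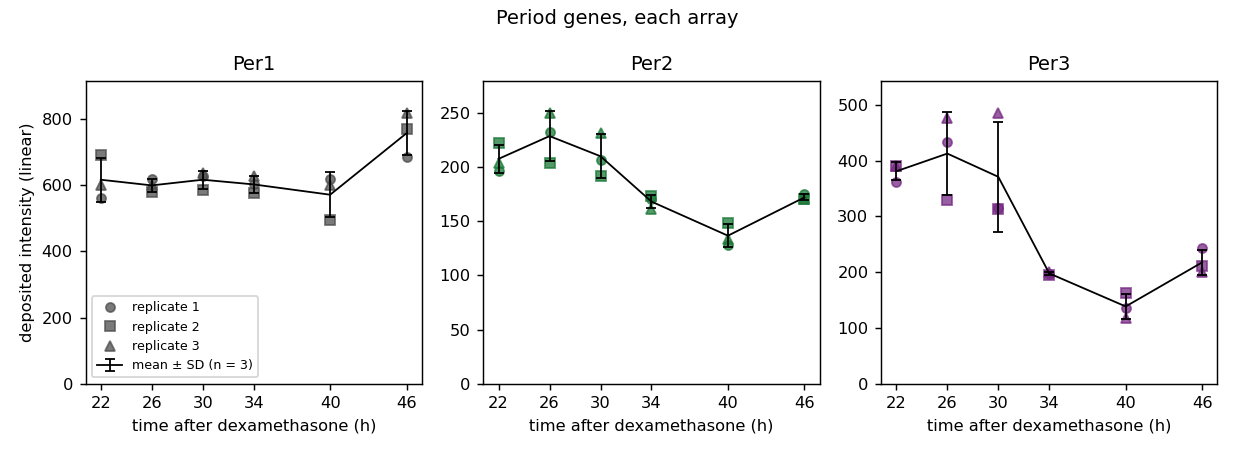
Deposited intensity (linear, vertical axis) of Per1, Per2 and Per3 on each array against hours after dexamethasone, with a marker for each replicate and the mean ± SD (n = 3) as a black line. Per2 and Per3 are lowest at 40 h, at means of 137 and 139, and Per1 is highest at 46 h, at a mean of 758.

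Per3, the member with the largest change, had intensities of 363, 390 and 390 at 22 h, of 433, 329 and 476 at 26 h, and of 315, 313 and 485 at 30 h. At 34 h they were 198, 196 and 200, then 136, 162 and 118 at 40 h, while 46 h had 243, 210 and 200. Every array from 22 to 30 h was above every array from 34 to 46 h. The spread was widest at 26 and 30 h, where 1 array of each time stood apart from the other two, lower at 26 h and higher at 30 h. After normalization the time means were 8.61 ± 0.07, 8.71 ± 0.27, 8.56 ± 0.33, 7.76 ± 0.02, 7.22 ± 0.20 and 7.81 ± 0.14 log2 (SD, n = 3 arrays each) from 22 h to 46 h (F test, adjusted p = 2.54e-06, limma).

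In the order of its levels, Per3 at 26 h, 22 h and 30 h did not differ beyond the spread: the difference of 26 h minus 22 h was 0.10 ± 0.14 (SE; adjusted p = 0.805, limma) and that of 30 h minus 22 h was -0.05 ± 0.14. The next in order was 46 h, which lay below 30 h by a difference of -0.75 ± 0.14 (adjusted p = 0.00333, limma). The levels at 46 h and 34 h did not differ beyond the spread (0.06 ± 0.14 log2). The lowest level, at 40 h, differed from 34 h by -0.54 ± 0.14 log2 and missed the threshold (adjusted p = 0.0988, limma), although the arrays did not overlap. It also missed with 16 of 18 single arrays left out (adjusted p up to 0.321, limma) and in 9 of 11 other settings. The settings that passed were only the arrays of these times in the fit (adjusted p = 0.0418, limma) and array weights (0.0350). The arrays whose loss let it pass were replicate 3 at 30 h (0.0347) and replicate 2 at 40 h (0.0429).

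Per2, a repressor that partners CRY proteins and is itself controlled through an E-box-like element, had intensities of 197, 222 and 204 at 22 h, of 232, 204 and 249 at 26 h, and of 207, 191 and 232 at 30 h. At 34 h they were 170, 173 and 161, then 128, 148 and 134 at 40 h, while 46 h had 175, 170 and 171. The arrays of 40 h lay below all others, and those of 22 to 30 h above all of 34 to 46 h. The time means were 7.82 ± 0.07, 7.95 ± 0.14, 7.83 ± 0.12, 7.54 ± 0.07, 7.20 ± 0.10 and 7.50 ± 0.03 log2 (SD, n = 3 arrays each) from 22 h to 46 h (F test, adjusted p = 1.29e-05, limma).

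Neighbours in the order of Per2, which ran 26, 30, 22, 34, 46 and 40 h from the highest, differed little at the top. The difference of 30 h minus 26 h was -0.12 ± 0.07 (unadjusted p = 0.119, limma) and that of 30 h minus 22 h was 0.01 ± 0.07. Per2 was lower at 34 h than at 22 h by a difference of -0.28 ± 0.07 log2 (adjusted p = 0.0250, limma). The levels at 46 h and 34 h did not differ beyond the spread (-0.04 ± 0.07 log2), and 46 h stood above 40 h by 0.29 ± 0.07 log2 without passing (adjusted p = 0.190, limma).

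Per1, the member with the best known direct response to glucocorticoids, had intensities of 560, 690 and 600 at 22 h, of 619, 578 and 602 at 26 h, and of 628, 586 and 637 at 30 h. At 34 h they were 603, 576 and 629, then 620, 494 and 601 at 40 h, while 46 h had 687, 769 and 817. The arrays of 46 h were the highest with 1 exception, the array of 690 at 22 h, and all other times overlapped each other. The time means were 9.27 ± 0.16, 9.24 ± 0.07, 9.29 ± 0.05, 9.28 ± 0.06, 9.23 ± 0.20 and 9.60 ± 0.13 log2 (SD, n = 3 arrays each) from 22 h to 46 h (F test, adjusted p = 0.0452, limma). That call was lost with any 1 of 13 arrays left out, with adjusted p up to 0.231 without replicate 3 at 46 h.

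From the highest, the order of Per1 was 46, 30, 34, 22, 26 and 40 h. Per1 was higher at 46 h than at the next time, 30 h, by 0.31 ± 0.09 log2 (adjusted p = 0.0454, limma). That p is close to the threshold, and this pair was not refitted with arrays left out or in other settings. The difference of 46 h minus 34 h, 0.32 ± 0.09 log2, did not pass (adjusted p = 0.0721, limma). From 30 h down, the 5 lower levels lay within 0.06 log2 of each other and no pair of them passed.

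Between successive times few single steps passed the threshold. Adjustment was made within each pair of times, so whether a step passes depends also on the other genes in that pair. For 46 h minus 40 h Per1 had an unadjusted p of 0.0010 (adjusted p = 0.181, limma). For 46 h minus 30 h it had an unadjusted p of 0.0040 (adjusted p = 0.0454, limma). No member passed for 26 h minus 22 h, where 2.19% of all genes were called, or for 30 h minus 26 h, where 0% were called by limma and 517 genes had an unadjusted p under 0.05; in both steps 0 of the 3 members had an unadjusted p under 0.05. For 34 h minus 30 h, Per3 fell by 0.81 ± 0.14 log2 (adjusted p = 0.0388, limma) against 0.0903% of all genes called, and Per2 missed the threshold with a difference of -0.29 ± 0.07 (adjusted p = 0.213, limma). For 40 h minus 34 h, Per2 fell by 0.33 ± 0.07 log2 (adjusted p = 0.0449, limma), with 0.823% of all genes called. These step calls were fragile: that of Per3 was lost with any 1 of 11 arrays left out (adjusted p up to 0.153, and -0.62 log2 without replicate 3 at 30 h), and that of Per2 with any 1 of 12 (up to 0.240). With only the 2 times compared in the fit both were lost as well (adjusted p = 0.219 for Per3 and 0.115 for Per2, limma). For 46 h minus 40 h, 0 of 3 members passed limma's test with 0.0351% of all genes called, although all 3 had an unadjusted p under 0.05, and their differences were 0.37 ± 0.09 for Per1, 0.29 ± 0.07 for Per2 and 0.60 ± 0.14 for Per3. An unadjusted p under 0.05 (limma) was reached by 1616 of the 19938 genes in this step. The arrays of 46 h lay above those of 40 h in each of the 3 genes without overlap. That is a description only, with no share of all genes without overlap beside it. The same holds wherever arrays are said here not to overlap or to lie all above or below others. Per3 passed with array weights (0.69 log2, adjusted p = 0.0351, limma). Per1 passed with the component of the variance within times that is described below as a covariate (adjusted p = 0.0279, limma). That covariate leaves the difference of Per1 as it is and can only lower its residual spread. Both genes missed the threshold in 10 of 11 other settings and with any of the 18 arrays left out.

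Of the pairs used for neighbours in the orders, 34 h minus 22 h called 2 of 3 members against 9.44% of all genes, and 46 h minus 30 h called 3 of 3 against 9.15%. For 46 h minus 34 h 0 of 3 members passed limma's test, 1 had an unadjusted p under 0.05, and 3.57% of all genes were called.

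The widest separation of Per2 and Per3 was between 40 h and 26 h, a pair of times chosen with earlier results of these data known. Per3 stood at 7.22 ± 0.20 log2 at 40 h and 8.71 ± 0.27 at 26 h (SD, n = 3), a fall by 1.50 ± 0.14 (SE), or 2.82-fold lower (adjusted p = 3.20e-05, limma). Per2 stood at 7.20 ± 0.10 at 40 h and 7.95 ± 0.14 at 26 h, a fall by 0.75 ± 0.07, or 1.68-fold lower (adjusted p = 3.20e-05, limma). Per1 differed by -0.01 ± 0.09, with a 95% interval from -0.21 to 0.19. In this pair 5.74% of all genes were lower and 6.23% higher at 40 h, and the median absolute difference over all genes was 0.09 log2. Folds on the log2(intensity + 16) scale understate the change of dim genes. The mean at 46 h lay above that at 40 h by 40.0% of this fall in Per3 and by 39.2% of it in Per2, a step that did not pass in either.

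Set against 22 h, which lies 24 h earlier, 46 h had lower Per2 and Per3 and higher Per1. Per3 had 243, 210 and 200 intensity units at 46 h, against 363, 390 and 390 at 22 h, a log2 difference of -0.80 ± 0.14 (SE; adjusted p = 0.000643, limma). Per2 had 175, 170 and 171 units at 46 h, against 197, 222 and 204 at 22 h, a log2 difference of -0.32 ± 0.07 (adjusted p = 0.00488, limma). Per1 had 687, 769 and 817 units at 46 h, against 560, 690 and 600 at 22 h, a log2 difference of 0.33 ± 0.09 (adjusted p = 0.0167, limma). The groups did not overlap in Per2 and Per3, while in Per1 the lowest array of 46 h was just below the highest of 22 h in deposited units and just above it after normalization. No share of all genes without overlap stands beside this description. Of all genes 9.73% were lower and 11.5% higher at 46 h. The call for Per1 was lost without 1 of 4 arrays (replicates 1 and 3 at 22 h, replicates 2 and 3 at 46 h), where adjusted p ran between 0.0585 and 0.0965, and when arrays were scaled to a common median (0.23 log2, adjusted p = 0.0560).

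A cosine with a period of 24 h fitted Per2 with an amplitude, the log2 distance from mean to peak, of 0.37 ± 0.05 (SE, n = 18 arrays) and Per3 with 0.79 ± 0.10, and both passed with an adjusted p of 0.00424 (limma), against 0.828% of all genes. The fitted peaks of Per2 and Per3 lay at 27.2 h and 26.9 h, and with single arrays left out they ranged from 27.1 to 27.5 h and from 26.7 to 27.1 h. Per1 did not pass (amplitude 0.07 ± 0.05, adjusted p = 0.546, limma), and the median amplitude over all genes was 0.06. The cosine gives 22 h and 46 h the same level. For Per3 that level was 8.20, while the mean at 46 h lay 0.39 below it and the mean at 22 h 0.41 above it. For Per2 the gaps were 0.16 below at 46 h and 0.16 above at 22 h. At the other 4 times the means of both genes lay within 0.04 of the curve. With a linear term in time added, amplitudes were 0.28 for Per2 and 0.59 for Per3, and both passed.

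Changes of different probe sets were compared, although they too depend on how bright a probe set is, since folds of dim genes are understated. Mean intensities were 228 for Per2 and 413 for Per3 at 26 h, and 137 and 139 at 40 h. The part of brightness in the differences below was not tested. Between 40 h and 26 h the change of Per3 exceeded that of Per2 by a log2 difference of -0.75 ± 0.12 (SE, n = 3 arrays each). Between 46 h and 22 h it exceeded that of Per2 by -0.48 ± 0.07. Relative to Per1, Per3 changed by -1.49 ± 0.26 and Per2 by -0.74 ± 0.18 for 40 h minus 26 h, and by -1.13 ± 0.17 and -0.66 ± 0.10 for 46 h minus 22 h. In all 6 of these comparisons the arrays of the 2 times did not overlap, giving p = 0.1 and an adjusted p of 0.1 (exact two-sided permutation test), the smallest p that 3 arrays against 3 allow. This test could therefore not pass the threshold, whatever the size of a difference.

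Arrays that were high for their time in Per3 were also high in Per2. Over the 18 arrays, deviations from the time means of Per3 and Per2 had Pearson's r = 0.83 (exact permutation within times, p = 0.00521, adjusted over 3 pairs 0.0156) and Spearman's rho = 0.85 (p = 0.00296, adjusted 0.00887), with the same sign in 16 of 18 arrays. Without the 2 arrays farthest from the median in Per2, r was 0.73. Deviations of Per1 gave lower values against Per2 (r = -0.03, exact permutation p = 0.908, and rho = 0.01, p = 0.963) and against Per3 (r = -0.13, p = 0.647, and rho = -0.07, p = 0.807). Without the 2 arrays farthest from the median in Per1 these r were 0.12 and 0.01. This relation was looked for after the values were seen. The first principal component of the deviations from time means, 33.8% of their variance over all genes, had r = 0.70 with the deviations of Per1, -0.05 with those of Per2 and -0.18 with those of Per3 (18 arrays, given as a description). As a covariate that component leaves the differences between times as they are and can only lower the residual spread of a gene that varies with it, so the smaller p it gives for Per1 (F test, adjusted p = 0.00503, limma) follows from how it was built.

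**Figure D2:**
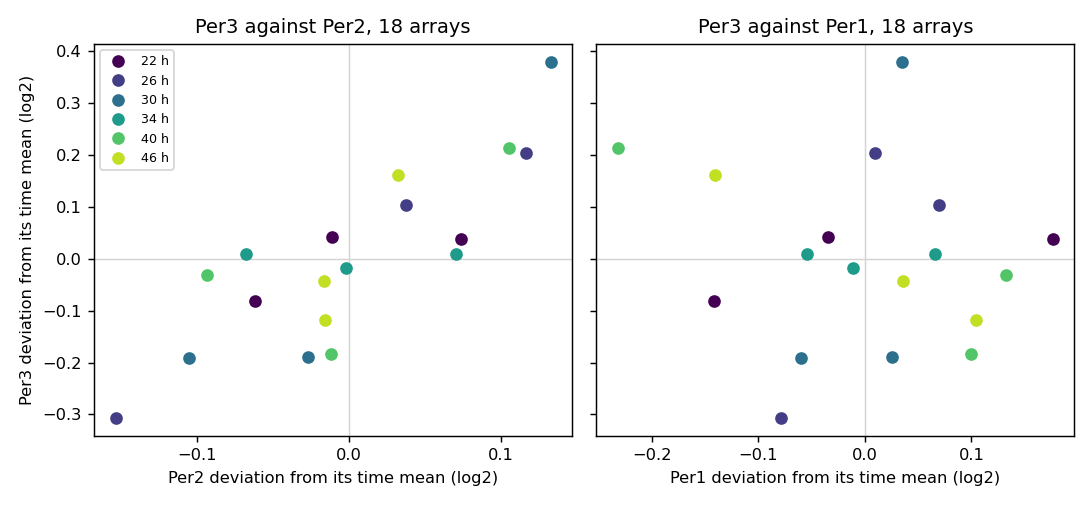
Deviation of each array from its time mean (log2) in Per3, on the vertical axis, against Per2 in the left panel and Per1 in the right panel, with 18 arrays coloured by hours after dexamethasone. Points rise together on the left (r = 0.83) and not on the right (r = -0.13).

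Over all 18 arrays the pattern of Per2 was most like that of Per3 (Pearson's r = 0.98, Spearman's rho = 0.95), and the next most alike were Cry2 (r = 0.94), which encodes a repressor that acts with PER, Tef (0.91), Avil (0.91), which encodes the actin-binding protein advillin, and Dbp (0.89). For Per3 the next most alike after Per2 were Tef (r = 0.96), Dbp (0.93), Cry2 (0.92) and Ccdc163 (0.91). For Per1 they were Smtn (r = 0.87), encoding the smooth muscle protein smoothelin, Fst (0.86), encoding the activin antagonist follistatin, the tight junction gene Cldn1 (0.85), Mhrt (0.84) and Slc22a23 (0.83). Like Per1, by which they were chosen, all 5 had their largest time mean at 46 h, above 22 h by 0.33 to 0.47 log2. These likenesses are over arrays of shared times among genes with a range of time means of at least 0.3 log2, and are given with no test.

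**Figure D3:**
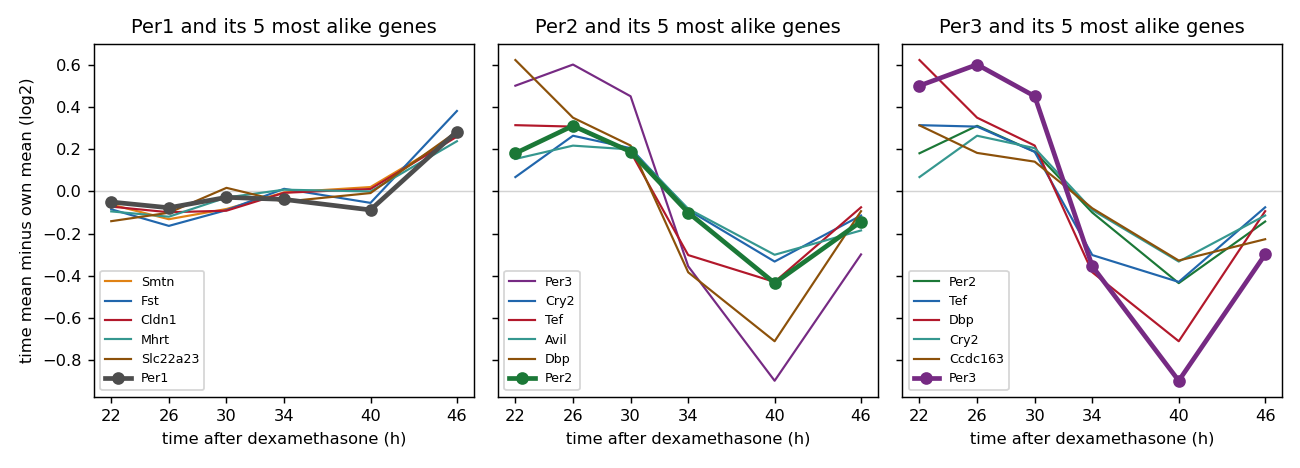
Time means minus each gene's own mean (log2, vertical axis) against hours after dexamethasone for Per1, Per2 and Per3, drawn thick, each with its 5 most alike genes by Pearson's r over 18 arrays. The Per1 group is nearly level to 40 h and higher at 46 h, and the Per2 and Per3 groups are lowest at 40 h.

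The partners and regulators of PER proteins at E-boxes were more often lower than higher at 40 h relative to 26 h. Of 9 measured, 5 fell and 1 rose (all genes 5.74% and 6.23%), and the list median was -0.35 log2. Cry2 fell by 0.60 ± 0.06 and Cry1 by 0.35 ± 0.05, both coding for repressors that bind PER, and Bhlhe41, an E-box repressor, fell by 0.37 ± 0.06. Arntl, which encodes BMAL1, rose by 0.34 ± 0.10 (adjusted p = 0.0380, limma). For 46 h minus 22 h, 3 of the 9 rose and 4 fell (all genes 11.5% and 9.73%). Ciart, which encodes a repressor also called CHRONO, fell by 1.24 ± 0.15, and Arntl rose by 0.62 ± 0.10. Cry2 fell by 0.18 ± 0.06 there, and Cry1 rose by 0.36 ± 0.05, opposite in sign to Per2 and Per3.

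Of the 4 D-box factors, Dbp fell by 1.06 ± 0.11 log2 and Tef by 0.74 ± 0.09 at 40 h relative to 26 h, and by 0.72 ± 0.11 and 0.39 ± 0.09 at 46 h relative to 22 h. The repressor gene Nfil3 differed by -0.12 ± 0.07 and Hlf by -0.13 ± 0.07 for 40 h minus 26 h, neither past the threshold. Hlf rose by 0.38 ± 0.07 at 46 h relative to 22 h. Among 4 measured nuclear receptor genes, Nr1d2 fell by 0.46 ± 0.14 (adjusted p = 0.0444, limma) at 40 h relative to 26 h, while Nr1d1, which encodes the repressor REV-ERB alpha, differed by 0.39 ± 0.16 (adjusted p = 0.116, limma) and had a fitted peak at 44.2 h. At 46 h relative to 22 h Nr1d2 fell by 0.73 ± 0.14 and Rora, encoding an activator of Arntl, rose by 0.37 ± 0.05. The median amplitude was 0.24 in the E-box list, 0.28 among D-box factors and 0.27 among nuclear receptors, beside 0.06 over all genes.

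**Figure D4:**
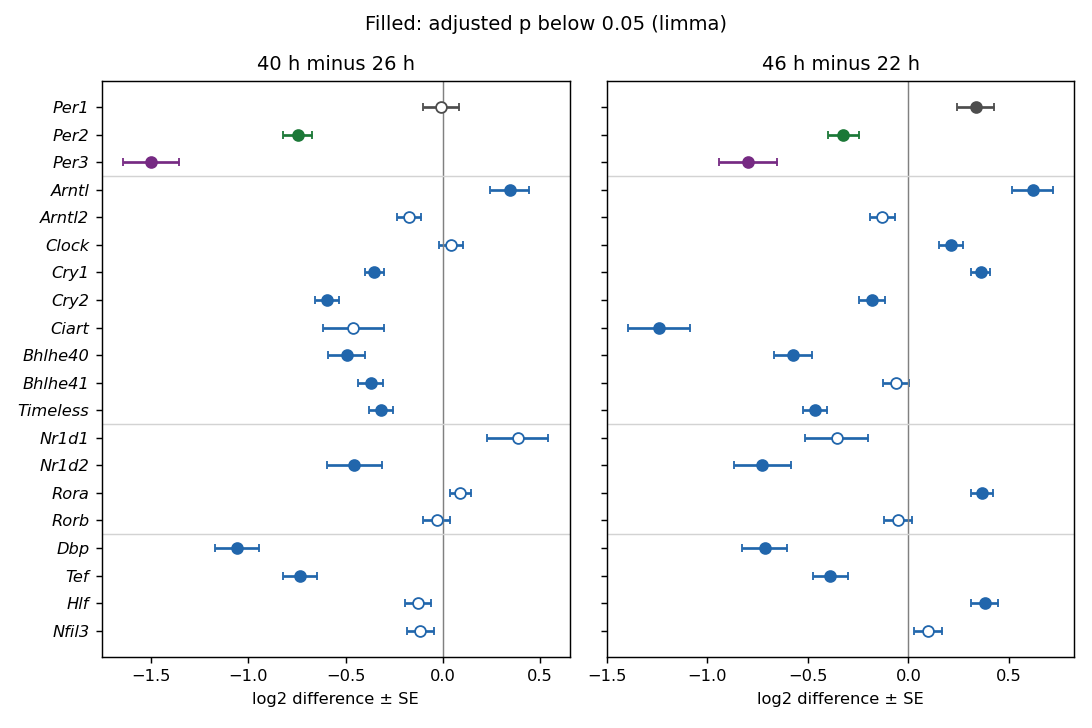
Log2 differences ± SE (horizontal axis) of 40 h minus 26 h and of 46 h minus 22 h for the period genes and, below the lines, the 9 E-box regulators, 4 nuclear receptors and 4 D-box factors. Filled points had an adjusted p under 0.05 (limma), and Per3 has the largest fall on the left, by 1.50.

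The cosine called 0 of 11 measured genes for enzymes acting on PER proteins and 0 of 8 for PER complex proteins. With 0.828% of all genes called, counts of 0 in lists this short do not set them apart. Of the 11 kinase, phosphatase and ubiquitin ligase genes, 0 passed limma's test for 40 h minus 26 h (all genes 5.74% lower and 6.23% higher). Ppp1ca alone had an unadjusted p under 0.05 for 40 h minus 26 h. At that unadjusted level the cosine took in Ppp1ca too, a phosphatase subunit gene (amplitude 0.10 ± 0.04, unadjusted p = 0.0409), and the other 10 did not reach it. The median amplitude was 0.03 in this list and 0.05 among the genes for PER complex proteins, beside 0.06 over all genes. The casein kinase genes Csnk1d and Csnk1e had amplitudes of 0.02 and 0.03, and 2 of the 11 fell at 46 h relative to 22 h (all genes 9.73%), Ppp1ca by 0.24 ± 0.06 and Csnk2a2 by 0.17 ± 0.05. Of 8 measured genes for proteins found in PER complexes, 4 fell at 46 h relative to 22 h (all genes 9.73%), including the histone deacetylase gene Hdac1 (by 0.17 ± 0.04). None passed the cosine by limma, with Sfpq at an unadjusted p of 0.0421 and the other 7 above 0.05.

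Listed beside the higher Per1 at 46 h are 2 groups of genes known, like it, to answer signals from outside the clock. Whether such signals had a part in the level of Per1 was not tested. At 46 h relative to 22 h, 3 of 9 glucocorticoid-induced genes rose and 1 fell (all genes 11.5% and 9.73%), and the list median was 0.04 log2. Dusp1, encoding a phosphatase of MAP kinases, rose by 0.73 ± 0.11, Klf9 by 0.32 ± 0.05 and Errfi1 by 0.14 ± 0.04, while Mt2 fell by 0.22 ± 0.07. Tsc22d3, which encodes the glucocorticoid-induced leucine zipper, differed by -0.03 ± 0.06, Fkbp5 by -0.07 ± 0.07 and Sgk1 by 0.04 ± 0.09, none past the threshold. Among 9 cAMP and immediate early genes 3 rose and 2 fell, set against the same shares of all genes, and the median was 0.02 log2. Fos rose by 0.33 ± 0.07, Sik1 by 0.18 ± 0.06 and Fosb by 0.17 ± 0.06, Junb fell by 0.26 ± 0.07 and Nr4a2 by 0.33 ± 0.06, while Nr4a1 (-0.23 ± 0.08) and Egr1 (0.09 ± 0.08) did not pass. The cosine called 0 of 9 in each of these lists by limma, where 0.828% of all genes were called. At an unadjusted p under 0.05 it took in Tsc22d3, Fkbp5, Sgk1 and Errfi1 of the first and Fos, Nr4a1 and Sik1 of the second.

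Genes next to the period genes on the chromosome were compared as well, taking the nearest on each side with a probe set of its own. The small nucleolar RNA gene Snord118, next to Per1, fell by 0.71 log2 at 40 h relative to 26 h (adjusted p = 0.00458, limma) and by 0.53 ± 0.14 at 46 h relative to 22 h, with an amplitude of 0.44 ± 0.09. Its probe set was dim, with a mean of 6.50 log2 over all arrays, the lowest among the neighbours. On the other side Hes7 had an amplitude of 0.06 ± 0.04. Neither neighbour of Per2 passed the cosine (Hes6 0.02 ± 0.03, Traf3ip1 0.05 ± 0.03), and neither did those of Per3 (Tnfrsf9 0.06 ± 0.04, Vamp3 0.11 ± 0.05). Hes6 rose by 0.24 ± 0.05 at 46 h relative to 22 h (adjusted p = 0.00269, limma), while Per2 fell.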

How the data were processed

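Total RNA of 18 fibroblast samples was put on Affymetrix arrays, per the labels' protocols. The table as deposited holds linear intensity, 1 value for each probe set and array. The submitters' processing notes name Affymetrix Expression Console 1.1 and PLIER 2.0; the settings used are not stated in the labels. Of 35556 probe sets, 21789 had 1 gene symbol. The brightest probe set stood for a gene, giving 19938 genes, of which 19855 matched RefSeq (GRCm38.p6) by gene identifier. Values were taken as log2(intensity + 16) and quantile normalized. Time means, all 15 pairs of times and a 24 h cosine were fitted to all 18 arrays with limma 3.58.1 in R 4.3.3 (lmFit, eBayes), with Benjamini-Hochberg adjustment over all genes and a threshold of 0.05. The fits were run on simulated data with independent noise for each gene and array, which lack the variation that genes share in these arrays. That run therefore does not show how shared variation affects the counts of genes called. Replicate numbers were not used to pair the samples in these fits. No column was left unused.

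Named genes were the period genes, up to 4 genes per list with the smallest cosine p, members a result turned on, the 5 most alike in pattern, with unnamed gene models and olfactory and vomeronasal receptors passed over, and chromosomal neighbours. Ciart, Csnk1d, Csnk1e, Dusp1, Klf9, Mt2, Fosb, Junb, Nr4a2, Col1a2 and Thy1 were named after their values were seen. The members and lists were chosen with earlier results of these data known. Listed genes without a probe set of 1 symbol are not reported here.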

Additional observations from a re-analysis of the deposited data

How the results depend on the processing

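The calls of Per2 and Per3 in the F test, for 40 h minus 26 h and for 46 h minus 22 h held, with the same direction, with each of 18 arrays left out and under the other normalizations, constants, probe sets, block, weights and variance models tried. The cosine calls of both held too, except at a period of 22 h, where the amplitude was 0.32 for Per2 (adjusted p = 0.148, limma) and 0.68 for Per3 (adjusted p = 0.159, limma). With arrays left out, Per1 ranged from 0.0173 to 0.231 in the adjusted p of the F test, from 0.26 to 0.42 log2 for 46 h minus 22 h, from -0.08 to 0.11 for 40 h minus 26 h and from 0.04 to 0.10 in amplitude. Its F test also missed the threshold with a constant of 1 (adjusted p = 0.0581, limma), with every probe set tested on its own (0.0840) and with the replicate block (0.0636), and its 46 h minus 22 h difference with arrays scaled to a common median (0.23). Per2 lay below the median level of all genes, so the filter on dim genes gave no value for it.

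Deviations of same-numbered arrays correlated above 0.1 in 15 of 45 pairs of arrays, from -0.56 to 0.49 with a median of -0.10. Arrays with different numbers were not compared, so these values cannot tell whether the numbers pair the samples. With the replicate block the step calls of Per2 for 40 h minus 34 h (-0.33, adjusted p = 0.0813, limma) and of Per3 for 34 h minus 30 h (-0.81, adjusted p = 0.0855, limma) were lost, and the cosine called 32 genes in all instead of 165. Counts over all genes moved too: the cosine called 22 to 298 genes with arrays left out, 5 at 22 h and 1985 at 26 h, 541 with the values as deposited, 1125 with common medians, 1043 with array weights, 1339 with the component covariate and 34 with a linear term. For 40 h minus 26 h 2387 genes were called, against 5451 as deposited, 5576 with common medians, 4449 with the component, 1368 among genes above the median level, 753 with only these times, and 832 to 1205 without 1 of replicates 2 and 3 at 26 h and 1 and 3 at 40 h. The F test called 3957 genes, against 6595 as deposited, 6141 with common medians, 10765 with array weights, 7696 with the component and 2631 without replicate 3 at 22 h. For 46 h minus 22 h 4234 were called, against 8790 with array weights and 2789 without replicate 1 at 22 h. For 40 h minus 26 h, 52.0% of the calls were higher at 40 h, 66.4% with the values as deposited and 35.8% with arrays scaled to a common median; for 46 h minus 22 h these shares were 54.2%, 63.9% and 36.1%. The largest component within times as a covariate was chosen after seeing the data, for the spread it takes out.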
